A study of Homo sapiens with 6 samples.

Results

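The epithelial sodium channel (ENaC) subunits were the 4 genes SCNN1A, SCNN1B, SCNN1D and SCNN1G, of 17687 genes named on the arrays. They were taken by symbol from the deposited value table, where each had 1 probe set, so that the choice of the brightest probe set per gene had no effect. The family was chosen by the measured signals of these arrays, since SCNN1G was known from earlier results to differ between EGF and control. The values of that comparison are therefore a description, and no p-value is given for the subunits in that comparison or for SCNN1G in any. The cells were A431, an established line from a human epidermoid carcinoma that carries very many copies of EGFR, the receptor for epidermal growth factor (EGF), on its surface. All 3 groups were grown in medium with 10% serum and starved for 24 h. One group received 100 ng/ml EGF and 10 µM gefitinib, which blocks the kinase of EGFR, another received 100 ng/ml EGF alone, and the control group was left untreated. Each group had 2 arrays, and the labels give 30 min as the time of harvest, with no order for the additions. Whether that time counts from EGF or from gefitinib is not given, and no value here checks it, so the differences are given for the groups as labelled. The labels call the arrays biological replicates, but nothing says that they came from separate cultures, so the spread behind every p-value is that of these samples and may be technical.

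ENaC is the channel through which sodium enters absorbing epithelia such as those of the distal nephron, airway, colon and sweat duct, and it is blocked by amiloride. The usual channel is built from an alpha, a beta and a gamma subunit, encoded by SCNN1A, SCNN1B and SCNN1G, while SCNN1D encodes a delta subunit that can take the place of alpha. Its amount at the cell surface is limited by the ubiquitin ligase NEDD4L and raised by the aldosterone-induced kinase SGK1, and proteases such as furin and prostasin open it by cleaving the alpha and gamma subunits. Keratinocytes of the epidermis also express ENaC subunits.

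SCNN1A lies on chromosome 12 (6346847 to 6377359, RefSeq, GRCh38.p14), SCNN1D on chromosome 1 (1280436 to 1292025), and SCNN1G (23182745 to 23216883) and SCNN1B (23278231 to 23381294) are neighbours on chromosome 16, 61347 bases apart. The RefSeq promoter table, which spans 250 bases before to 50 after a transcript's start, held 1 of the 4 subunits. The promoter of SCNN1B (chr16:23302052-23302351, plus strand, GRCh38.p14) is shown as that of a subunit, beside that of THEM5 (chr1:151853663-151853962, minus strand), the gene whose values followed those of SCNN1G most closely. The SCNN1B window lies within the span of the gene given above, so its transcript starts inside that span. No window at the start of the span is shown. Capitals mark each match to the SP1 box GGGCGG or the FOXO motif GTAAACA on either strand.
SCNN1B: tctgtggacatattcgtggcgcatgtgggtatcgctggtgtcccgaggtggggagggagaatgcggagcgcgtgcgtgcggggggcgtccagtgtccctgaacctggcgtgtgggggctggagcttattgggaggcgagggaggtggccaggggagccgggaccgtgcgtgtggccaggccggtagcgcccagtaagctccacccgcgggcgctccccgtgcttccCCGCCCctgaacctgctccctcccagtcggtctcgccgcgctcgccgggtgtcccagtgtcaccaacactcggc
THEM5: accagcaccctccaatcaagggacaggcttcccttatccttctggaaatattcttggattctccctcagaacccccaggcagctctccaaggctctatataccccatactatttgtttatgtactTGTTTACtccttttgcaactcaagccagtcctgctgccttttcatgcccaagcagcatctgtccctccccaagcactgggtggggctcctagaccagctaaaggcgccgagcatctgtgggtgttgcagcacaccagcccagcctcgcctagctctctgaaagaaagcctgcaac
The SCNN1B window held 1 SP1 box, a motif found in 45.0% of the 35116 promoters of the table, and the THEM5 window held 1 FOXO motif, found in 3.42%. Neither window held the AP-1 motif TGANTCA, found in 7.71% of promoters, or the TATA box TATAAA, found in 11.5%. These matches are letters in a window and say nothing of binding.

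The measurements were made on log2 array signals as deposited. The background limit of an array was the 95th percentile of its 612 negative-control probe sets, and it ranged from 7.14 to 7.65 over the 6 arrays. Between 38.4% and 42.1% of the 21448 transcript probe sets lay above it on an array. All 11 measured markers of squamous epithelium, among them KRT5, KRT14 and CDH1, lay above the limit on all 6 arrays. Their mean log2 signal ran from 13.95 to 14.03 with EGF plus gefitinib, from 14.13 to 14.16 with EGF and from 13.74 to 13.75 in the control. Of 9 leukocyte markers 8 lay below the limit on all 6 arrays, as did 7 of 9 fibroblast, 6 of 8 endothelial and 4 of 5 melanocyte markers. Among the exceptions the leukocyte marker CD68, the fibroblast marker LUM and the melanocyte marker MITF lay above it on all 6. DUSP6, an ERK phosphatase that EGF signalling induces, averaged 11.07 with EGF plus gefitinib, 12.50 with EGF and 8.46 in the control. EGFR averaged 15.31, 14.44 and 14.40 in the same order, and its small difference between EGF and control turned to −0.063 after quantile normalization.

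SCNN1A was the subunit measured well on every array, and it was lower with EGF than in the control, with the arrays that also had gefitinib between the other groups. Its probe set gave 12.20 and 12.001 with EGF plus gefitinib, 11.53 and 11.50 with EGF, and 12.99 and 12.66 in the control. All 6 values lay above the background limit, by 4.07 to 5.85 log2 units, and no 2 groups overlapped. With EGF the mean was 11.51 ± 0.024, against 12.83 ± 0.24 in the control (SD, n = 2 each), 2.48-fold lower, a log2 difference of −1.31 ± 0.19 (standard error of the fit). Without control 1, EGF 1 or EGF 2 in turn this difference (−1.14, −1.33 and −1.296) no longer passed the threshold of an adjusted p under 0.05. RNA of a whole culture was measured, so fewer cells with SCNN1A RNA and less of it per cell cannot be told apart.

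With gefitinib added to EGF, SCNN1A averaged 12.10 ± 0.14, against 11.51 ± 0.024 with EGF alone (SD, n = 2 each), a difference of 0.58 ± 0.19 with a 95% interval of 0.13 to 1.04 (limma, adjusted p = 0.0821). Set against the control the same arrays differed by −0.73 ± 0.19, with a 95% interval of −1.19 to −0.27 (adjusted p = 0.0889). Neither difference passed the threshold over all probe sets. Both did when the 9211 probe sets above the limit on at least 2 arrays were tested alone (adjusted p = 0.0179 against EGF and 0.0159 against the control). Both also did with an intensity trend and a robust variance prior used together (0.00483 and 0.00241). The arrays of each group serve in 2 of the 3 comparisons, so both of these share arrays with the one that chose the family.

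**Figure D1:**
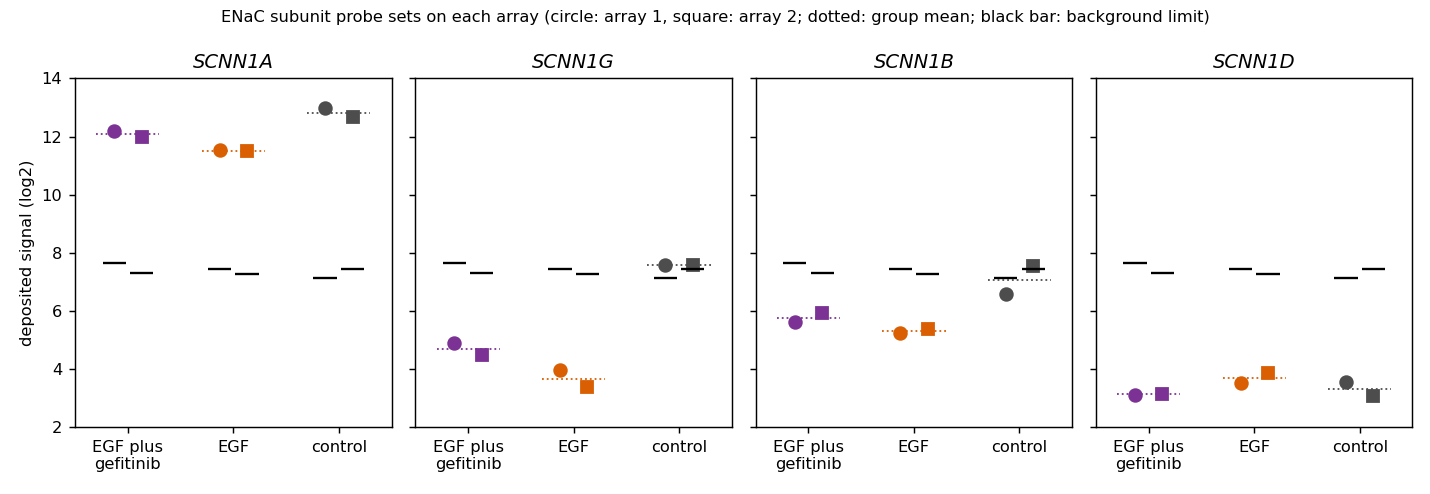
Deposited log2 signal of the ENaC subunits on each array, by group, with each array's background limit as a black bar and the group mean dotted. SCNN1A lies 4.07 to 5.85 log2 units above the limit on all arrays, SCNN1G and SCNN1B come near it in the control group alone, and SCNN1D lies below it throughout.

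SCNN1G, the gamma subunit, had the widest spread between groups among the 4 probe sets, but at signals where the arrays hardly measure. It gave 4.92 and 4.48 with EGF plus gefitinib, 3.97 and 3.38 with EGF, and 7.57 and 7.59 in the control. The control values lay just above the limit, by 0.43 and 0.15, and above 96.6% and 95.4% of the negative controls. The EGF values stood above 52.9% and 32.7% of the negative controls on their arrays, and those with gefitinib above 73.2% and 59.8%. The fitted difference was −3.91 ± 0.25 for EGF against the control, while the fold that the limit allows is at least 1.15-fold lower, so the size of the change is not known.

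With gefitinib the SCNN1G values stayed below those of both controls. The fitted difference of EGF plus gefitinib from the control was −2.88 ± 0.25, which the limit bounds at 1.08-fold lower or more. From EGF alone it was 1.03 ± 0.25, with both groups below the limit, so no fold is given. With the limit set at the 99th percentile of the negative controls 0 arrays measured SCNN1G, in place of 2, and at the 50th percentile 5 stood above it.

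SCNN1B, the beta subunit, stood above the limit on 1 array, control 2. It gave 5.62 and 5.93 with EGF plus gefitinib, 5.25 and 5.37 with EGF, and 6.57 and 7.55 in the control. The control arrays stood apart from each other, and no group overlapped another. The difference was −1.75 ± 0.32 for EGF against the control, and −1.26 without control 2, where it no longer passed the threshold, as it did not without EGF 1 or EGF 2 (−1.69 and −1.81). EGF plus gefitinib differed from EGF by 0.47 ± 0.32 (95% interval −0.28 to 1.22, limma, adjusted p = 0.379) and from the control by −1.28 ± 0.32 (−2.03 to −0.53, adjusted p = 0.0744). The comparison with the control passed with an intensity trend and a robust variance prior in limma (adjusted p = 0.0136).

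SCNN1D, the delta subunit, was not measured above background. It gave 3.13 and 3.16 with EGF plus gefitinib, 3.53 and 3.89 with EGF, and 3.56 and 3.08 in the control. These values stood above 24.3% to 48.0% of the negative controls, so they fall in the middle and lower part of the background. EGF plus gefitinib differed from EGF by −0.56 ± 0.23 (limma, adjusted p = 0.144) and from the control by −0.17 ± 0.23 (adjusted p = 0.728).

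**Figure D2:**
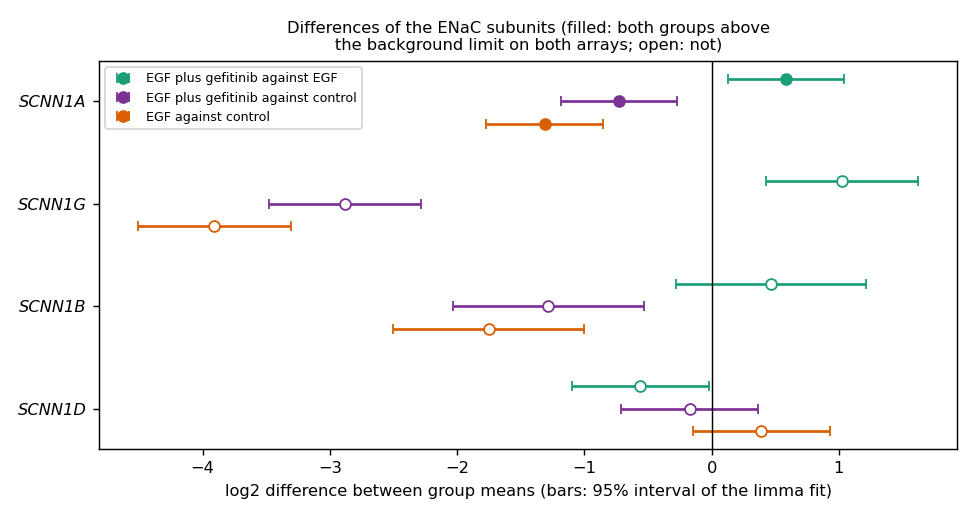
Log2 differences between group means for the ENaC subunits, with 95% intervals of the limma fit. Filled points mark comparisons in which both groups lay above the background limit on both arrays, which holds for SCNN1A alone, and SCNN1G has the largest negative values with open points.

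In counts over the 4 subunits, 3 (SCNN1A, SCNN1B and SCNN1G) passed the threshold as lower with EGF than in the control, where 5.3% of all probe sets did, and since the choice of the family used this comparison nothing is read from that count. The arrays of these 3 did not overlap between the groups, as for 28.5% of probe sets lower and 27% higher with EGF. The median difference of the 4 was −1.53, against −0.028 over all probe sets. Between EGF plus gefitinib and EGF, 1 subunit passed (SCNN1G, higher, with both groups below the limit), where 8.86% of probe sets were called higher. It failed without control 1, control 2, EGF 2 or either array with gefitinib (0.73 to 1.25 in these fits). Between EGF plus gefitinib and the control, 1 passed (SCNN1G, lower), where 1.7% of probe sets were called lower. That call was lost without control 1, control 2 or EGF plus gefitinib 2 (−2.89, −2.87 and −2.66). The share of all probe sets called higher there was 2.19%. Both comparisons with gefitinib share arrays with the one by which SCNN1G was chosen, so nothing is read from its calls in them either.

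Non-overlap of 2 against 2 arrays was common over the whole array. Between EGF plus gefitinib and EGF all 4 subunits had arrays that did not overlap, 3 higher and 1 (SCNN1D) lower, where 30.8% of probe sets did so higher and 26.3% lower. Between EGF plus gefitinib and the control 3 subunits did so, all lower, where 24.7% of probe sets did so lower and 25.6% higher. The median difference of the 4 was 0.53 in the first of these comparisons and −1.01 in the second, against 0.046 and 0.011 over all probe sets.

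Genes that control how long ENaC stays at the cell surface had 21 of 23 listed members measured. With EGF 3 rose and 0 fell (4 and 0 at an unadjusted p under 0.05 in limma), while 6.61% and 5.3% of all probe sets were called in those directions, and the list's median difference was 0.071. SGK1, the kinase that keeps NEDD4L from ENaC, gave 9.07 and 8.28 with EGF plus gefitinib, 9.13 and 8.62 with EGF, and 7.43 and 7.36 in the control. The groups with EGF overlapped each other and lay above the control, whose arrays fell on either side of the limit. SGK1 was 1.48 ± 0.30 higher with EGF than in the control (limma, adjusted p = 0.0223) and differed by −0.20 ± 0.30 between EGF plus gefitinib and EGF (adjusted p = 0.707). OXSR1, a kinase of the WNK pathway, rose by 0.73 ± 0.17 with EGF (adjusted p = 0.0345), and RICTOR, a subunit of the mTOR complex that activates SGK1, by 0.86 ± 0.22 (adjusted p = 0.0497). None of these rises was called when any 1 of the 4 control and EGF arrays was left out (SGK1 1.22 to 1.74, OXSR1 0.68 to 0.78, RICTOR 0.58 to 1.14), and that of RICTOR also not without either array with gefitinib.

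NEDD4L, the ubiquitin ligase that removes ENaC from the surface, stood highest with gefitinib. It gave 13.51 and 13.07 with EGF plus gefitinib, 11.52 and 11.75 with EGF, and 12.11 and 12.03 in the control, with no overlap between groups. It was 3.15-fold higher with EGF plus gefitinib than with EGF (1.65 ± 0.21, limma, adjusted p = 0.00261), a call kept without each of the 6 arrays in turn. Against the control it was 2.34-fold higher (1.22 ± 0.21, adjusted p = 0.031), a call lost without any 1 of the 6 arrays (1.01 to 1.44). EGF alone differed from the control by −0.43 ± 0.21 (adjusted p = 0.253). WNK1, a kinase upstream of SGK1 and OXSR1, rose 2.08-fold between EGF plus gefitinib and EGF (1.06 ± 0.20, adjusted p = 0.0114), and YWHAB, a 14-3-3 protein that binds phosphorylated NEDD4L, fell by 0.92 ± 0.18 (adjusted p = 0.0128). The call of WNK1 was lost without EGF 1, EGF 2 or EGF plus gefitinib 2 (0.85 to 1.26 over all fits), and that of YWHAB without EGF 1 (−0.81 to −1.03 over all fits). In this comparison 2 of the 21 were thus higher and 1 lower, with 9.81% of all probe sets called lower.

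**Figure D3:**
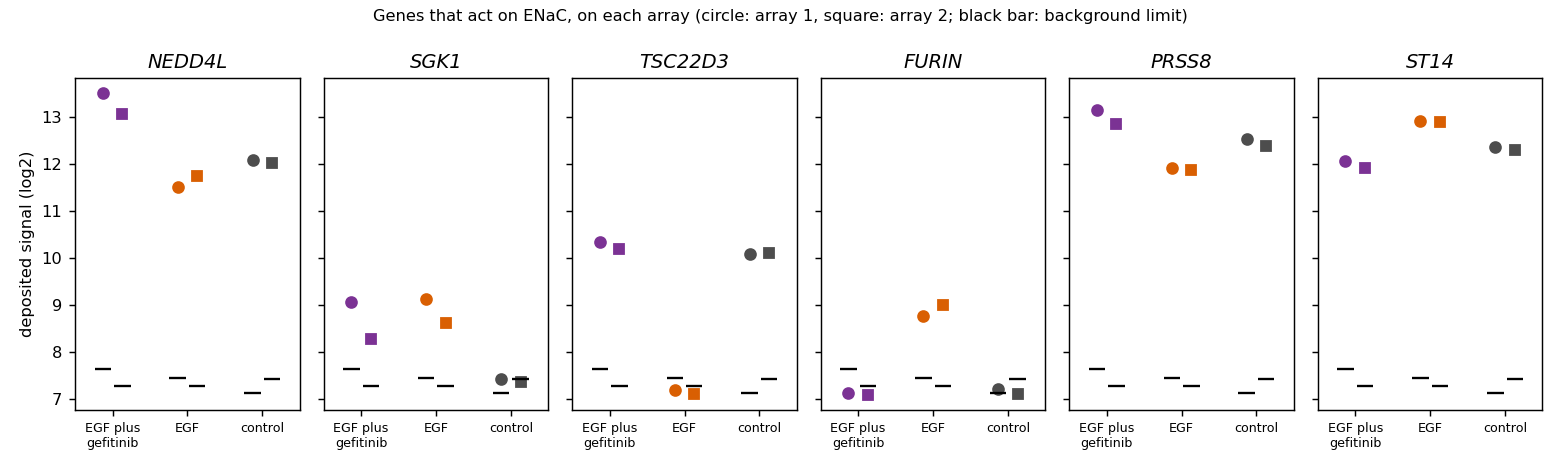
Deposited log2 signal on each array of 6 genes that act on ENaC or its turnover, with the background limit of each array as a black bar. NEDD4L and PRSS8 are highest with EGF plus gefitinib, FURIN and ST14 highest with EGF, TSC22D3 lowest with EGF, and SGK1 higher in both groups given EGF than in the control. These are orders of the plotted values. Against the control, limma did not call PRSS8 or SGK1 with EGF plus gefitinib (adjusted p = 0.154 and 0.065) or ST14 with EGF (0.0805).

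Among the proteases that cleave ENaC and their inhibitors 16 of 19 were measured, and with EGF 2 rose and 2 fell, where 6.61% of all probe sets were called higher and 5.3% lower. FURIN, the convertase that makes the first cuts, gave 7.14 and 7.10 with EGF plus gefitinib, 8.78 and 9.01 with EGF, and 7.22 and 7.12 in the control. It stood clear of the background limit with EGF alone, and 1 control array lay just above it. It was 3.30-fold higher with EGF than in the control (1.72 ± 0.18, limma, adjusted p = 0.00237) and at least 2.68-fold lower with EGF plus gefitinib than with EGF (−1.78 ± 0.18, adjusted p = 0.00115), and both calls were kept without each of the 6 arrays in turn. PLAU, urokinase, which activates plasmin, a protease that cuts the gamma subunit, rose 4.49-fold with EGF (2.17 ± 0.18, adjusted p = 0.00121) and was still 3.27-fold above the control with gefitinib (1.71 ± 0.18, adjusted p = 0.00963). The call of PLAU with gefitinib against the control was lost at least without control 1 and without EGF plus gefitinib 2. CTSB, cathepsin B, fell by 0.93 ± 0.17 with EGF (adjusted p = 0.0164), and SPINT1, an inhibitor of matriptase and prostasin, by 0.88 ± 0.23 (adjusted p = 0.0479). The calls of CTSB and SPINT1 were lost with any 1 of the 4 control and EGF arrays left out (CTSB −1.01 to −0.85, SPINT1 −0.90 to −0.87).

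Between EGF plus gefitinib and EGF, 2 of the 16 were higher and 4 lower, where 8.86% of all probe sets were called higher and 9.81% lower. PRSS8, prostasin, the membrane-anchored protease first known as an activator of ENaC, gave 13.15 and 12.87 with EGF plus gefitinib, 11.93 and 11.88 with EGF, and 12.54 and 12.39 in the control. It was thus highest with gefitinib, and it was 2.15-fold higher there than with EGF (1.10 ± 0.19, limma, adjusted p = 0.00739). EGF alone differed from the control by −0.56 ± 0.19 (adjusted p = 0.104). ST14, matriptase, which activates prostasin, fell by 0.90 ± 0.17 (adjusted p = 0.0114), and CTSB rose by 1.01 ± 0.17 (adjusted p = 0.00779). CTSS, cathepsin S, was at least 1.93-fold lower (adjusted p = 0.00872), and TMPRSS13, a serine protease of the cell membrane, fell by 0.98 ± 0.20 below the limit in both groups (adjusted p = 0.0139). The call of PRSS8 was lost without EGF 2 (adjusted p = 0.0515), that of CTSB without EGF 1 (0.0565) and that of ST14 without EGF 1, EGF 2 or EGF plus gefitinib 2 (up to 0.0701). That of CTSS was lost without EGF 2 or EGF plus gefitinib 1 (up to 0.0586), and that of TMPRSS13 without EGF 2 or EGF plus gefitinib 2 (up to 0.0924).

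Corticosteroids induce SCNN1A in many epithelia, and 14 of 16 listed receptors and target or partner genes were measured. With EGF 3 of the 14 rose and 1 fell, beside 6.61% and 5.3% of all probe sets. The one that fell was TSC22D3, the glucocorticoid-induced leucine zipper, which supports ENaC at the surface and is also induced by FOXO factors. It gave 10.34 and 10.21 with EGF plus gefitinib, 7.21 and 7.11 with EGF, and 10.08 and 10.13 in the control. The EGF arrays alone lay below the limit. TSC22D3 was at least 6.63-fold lower with EGF than in the control (limma, adjusted p = 0.000381) and at least 7.46-fold higher with EGF plus gefitinib than with EGF (adjusted p = 0.000218), and it differed by 0.17 ± 0.17 between EGF plus gefitinib and the control (adjusted p = 0.632). Both calls were kept without each of the 6 arrays in turn.

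DOT1L, a histone methyltransferase that represses SCNN1A in mouse collecting duct cells, gave 7.26 and 7.29 with EGF plus gefitinib, 8.46 and 8.52 with EGF, and 7.30 and 7.24 in the control. It stood highest with EGF. In the control 1 of its 2 arrays lay above the background limit, so the fold over the control rests on values near that limit. The rise was 2.34-fold over the control (1.23 ± 0.17, limma, adjusted p = 0.0057), and EGF plus gefitinib left it at least 2.03-fold below EGF (−1.22 ± 0.17, adjusted p = 0.00337). Both calls were kept without each of the 6 arrays in turn. MLLT3, the partner of DOT1L in that repression, rose between EGF plus gefitinib and EGF by at least 1.28-fold (1.298 ± 0.31, adjusted p = 0.0273), a call lost without EGF 2 or either array with gefitinib (0.88 to 1.71). SIRT1, a deacetylase reported to work with DOT1L, rose 3.10-fold in that comparison (1.63 ± 0.21, adjusted p = 0.00253). FKBP4, a cochaperone of steroid receptors, fell 3.16-fold (−1.66 ± 0.17, adjusted p = 0.00112). HSD11B2, the enzyme that keeps cortisol from the mineralocorticoid receptor, fell by 1.44 ± 0.22 (adjusted p = 0.0055), below the limit in both groups. ERRFI1, an inhibitor of EGFR that glucocorticoids also induce, rose 2.99-fold with EGF (1.58 ± 0.19, adjusted p = 0.00381). DUSP1, another MAP kinase phosphatase, rose by 1.22 ± 0.25 with EGF (adjusted p = 0.0223), below the limit in both groups, and by 0.92 ± 0.25 with EGF plus gefitinib against EGF (adjusted p = 0.0418). The rise of DUSP1 with EGF was not called with any 1 of the 4 control and EGF arrays left out (1.09 to 1.36), and the other was lost in all the leave-one-out fits except that without EGF plus gefitinib 2 (0.60 to 1.24 over all fits). In the comparison with gefitinib 4 of the 14 were higher and 3 lower, beside 8.86% and 9.81% of all probe sets.

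The receptors themselves are given because corticosteroids act through them, and were picked for this after their values were seen. Whether SCNN1A depends on them in these cells was not tested. NR3C1, the glucocorticoid receptor, averaged 10.77 with EGF plus gefitinib, 10.42 with EGF and 10.04 in the control, and EGF differed from the control by 0.38 ± 0.18 (limma, adjusted p = 0.232). NR3C2, the mineralocorticoid receptor, lay below the limit in all groups, at means of 3.07, 3.48 and 3.78 in the same order.

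The sodium pump drives the uptake that ENaC begins. Of 16 listed sodium pump subunits and FXYD partners 9 were measured, with no catalytic alpha subunit of the sodium pump among them. In this list limma called 0 of them with EGF at an adjusted p under 0.05, and 0 had an unadjusted p under 0.05. Of all probe sets 6.61% were called higher there and 5.3% lower, and 5677 of 21448 had an unadjusted p under 0.05. The 3 above the limit were ATP1B1, ATP1B3 and FXYD5, which differed by −0.38 ± 0.18, 0.036 ± 0.19 and 0.11 ± 0.18 (adjusted p = 0.231, 0.934 and 0.751). FXYD7 was called higher with EGF plus gefitinib than with EGF, below the limit in both groups (1.12 ± 0.20, adjusted p = 0.00882), except without EGF 1 (adjusted p = 0.0618). The 4 measured acid-sensing channels, relatives of ENaC, lay below the limit in every group, and limma called 0 in any comparison. Of all probe sets 11.9% were called for EGF against control, 18.7% for EGF plus gefitinib against EGF and 3.89% for EGF plus gefitinib against control. At an unadjusted p under 0.05, 1 acid-sensing channel was lower with EGF plus gefitinib than in the control and 0 differed in the other comparisons.

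Of 23 other ion and water transporters of epithelia 7 lay above the limit in at least 1 group. With EGF 2 rose and 0 fell (3 and 1 at an unadjusted p under 0.05 in limma), beside 6.61% and 5.3% of all probe sets. ANO1, a calcium-activated chloride channel, gave 13.19 and 13.32 with EGF plus gefitinib, 14.42 and 14.48 with EGF, and 13.45 and 13.55 in the control. It stood highest with EGF, 0.95 ± 0.17 over the control (limma, adjusted p = 0.0151), and fell by 1.20 ± 0.17 with EGF plus gefitinib against EGF (adjusted p = 0.004). The rise was not called with any 1 of the 4 control and EGF arrays left out (0.90 to 1.003). SLC4A7, a sodium bicarbonate cotransporter, rose 2.61-fold with EGF (adjusted p = 0.00615), except without EGF 2 (adjusted p = 0.0527), and fell 1.99-fold with EGF plus gefitinib against EGF (adjusted p = 0.013), except without EGF 2 or EGF plus gefitinib 1 (up to 0.0861). AQP3, the water and glycerol channel of the basal epidermis, averaged 9.85 with EGF plus gefitinib, 11.52 with EGF and 11.20 in the control, and was 3.19-fold lower with EGF plus gefitinib than with EGF (adjusted p = 0.00355). These 3 genes were the ones called lower in that comparison, where 9.81% of all probe sets were, and 0 were called higher (0 also at an unadjusted p under 0.05 in limma).

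Between EGF plus gefitinib and the control 3.89% of all probe sets were called, 2.19% higher and 1.7% lower. Of the 21 turnover genes 2 were higher, NEDD4L and RICTOR. Of the 16 proteases and inhibitors 1 was higher (PLAU) and 2 were lower (TMPRSS13 and CTSS). Of the 14 corticosteroid genes 3 were higher (DUSP1, ERRFI1 and SIRT1) and 1 was lower (FKBP4). FXYD7 was higher among the 9 sodium pump genes, and AQP3 was lower among the 23 other transporters. With any 1 array left out, 0 genes of the turnover and sodium pump lists were called here, so the calls of NEDD4L, RICTOR and FXYD7 held in 0 of the 6 fits. The call of FKBP4 was likewise lost in all 6, as 0 corticosteroid genes were lower. In the other lists and directions at most 1 gene was called, or 2 for corticosteroid genes called higher.

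The profiles most like that of SCNN1A were found by the root mean square difference over the 6 arrays, each gene centred on its own mean, among 7932 genes measured above the limit in at least 1 group. They were SPAG16, a protein of the ciliary axoneme (0.070 log2 units), BCKDHB, a subunit of the branched-chain ketoacid dehydrogenase (0.072), ACP6, a lysophosphatidic acid phosphatase (0.078), RNF5, a ubiquitin ligase of the endoplasmic reticulum (0.089), and NDRG3 (0.105). BCKDHB, for example, gave 9.43 and 9.42 with EGF plus gefitinib, 8.83 and 8.78 with EGF, and 10.24 and 10.06 in the control, so that it too was lowest with EGF and had gefitinib arrays between. Leaving out 1 array in turn kept 2 or 3 of these 5 among the closest. RNF5 has a near-identical pseudogene, and its signal may include that copy.

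For SCNN1G the closest were THEM5, an acyl-CoA thioesterase (0.356), RPTN, repetin of the cornified envelope (0.457), TMT1A, a thiol methyltransferase (0.566), KRT10, a keratin of the differentiating epidermis (0.574), and WNT10A, a Wnt ligand (0.613). THEM5 gave 8.96 and 7.92 with EGF plus gefitinib, 8.13 and 8.03 with EGF, and 11.64 and 11.54 in the control, all above the limit. Its own step from the control to both treated groups lay at signals that the arrays measured. THEM5 was picked for its closeness to SCNN1G, so a shared step follows from that choice and nothing about SCNN1G is read from it. KRT10 gave 8.92 and 8.96 with EGF plus gefitinib, 9.15 and 8.996 with EGF, and 11.87 and 11.81 in the control, and its gefitinib arrays lay below both EGF arrays. TMT1A gave 9.91 and 9.70 with EGF plus gefitinib, 8.15 and 8.42 with EGF, and 11.43 and 11.50 in the control. The gefitinib arrays of TMT1A, RPTN and WNT10A lay above both EGF arrays, as did those of SCNN1G, while those of THEM5 fell on either side of them. Of TMT1A, RPTN and WNT10A, TMT1A alone lay above the background limit on all of these arrays. RPTN gave 5.41 and 5.29 with EGF plus gefitinib and 5.01 and 5.01 with EGF, all below the limit. The EGF arrays of WNT10A (6.58 and 6.98) also lay below it. Nothing is read from an order within the background. Leaving out 1 array in turn kept 3 to 5 of the 5. As SCNN1G itself lay in the background in both treated groups, its likeness to these genes rests on the step from the control.

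**Figure D4:**
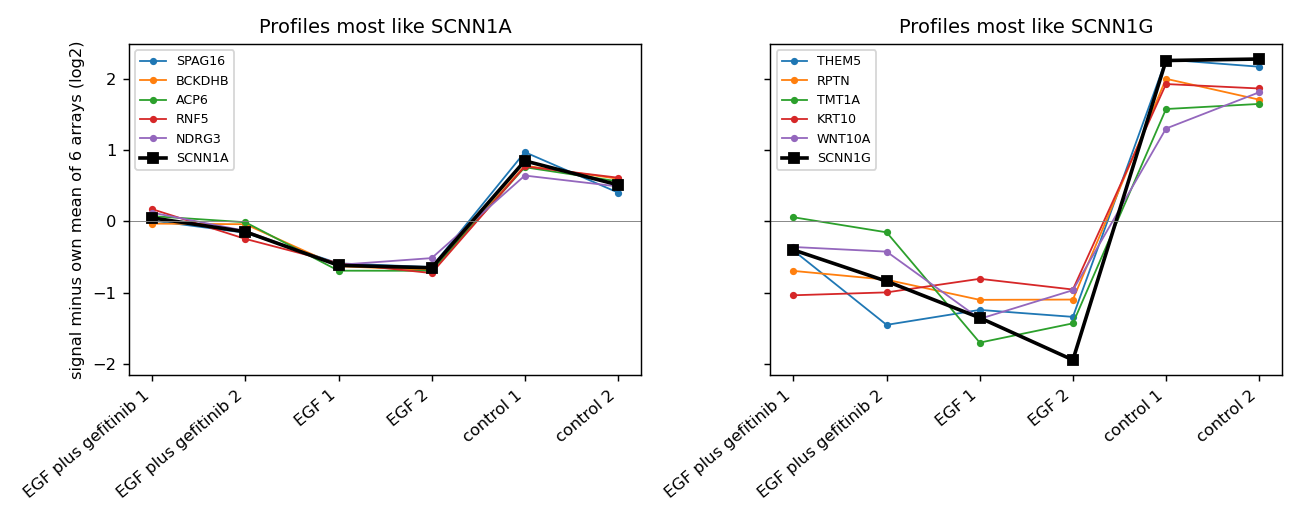
Log2 signal of SCNN1A and of SCNN1G (black squares) on each array minus its own mean of the 6 arrays, with the 5 genes closest to each by root mean square difference. The SCNN1A set is lowest with EGF and highest in the control. The SCNN1G set is highest in the control and lower in both treated groups, with the gefitinib arrays of TMT1A midway between its EGF and control arrays.

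The genes beside the subunits on the chromosomes were looked at for calls of their own. LTBR, the lymphotoxin beta receptor, whose RefSeq span overlaps that of SCNN1A, gave 10.86 and 10.39 with EGF plus gefitinib, 11.70 and 11.94 with EGF, and 10.80 and 10.40 in the control. It was highest with EGF, where SCNN1A was lowest, 2.33-fold above the control (limma, adjusted p = 0.0206) and, with EGF plus gefitinib, 2.29-fold below EGF (adjusted p = 0.0148). The rise was not called with any 1 of the 4 control and EGF arrays left out (1.02 to 1.43), nor the fall without EGF 1, EGF 2 or EGF plus gefitinib 2 (−1.43 to −0.96 over all fits). TNFRSF1A, on the other side of SCNN1A, averaged 11.60 with EGF plus gefitinib, 11.69 with EGF and 11.77 in the control, and differed by −0.081 with EGF (adjusted p = 0.84). Of 6 measured neighbours of SCNN1A, 1 rose and 1 fell with EGF, where 6.61% and 5.3% of all probe sets did. The one that fell, PLEKHG6, lay below the limit in both groups and was called in 0 of the leave-one-out fits.

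Around SCNN1G and SCNN1B the neighbours USP31, HS3ST2, NPIPB5, COG7, GGA2 and EARS2 held 0 calls by limma for EGF against the control, and 0 had an unadjusted p under 0.05. Of all probe sets 6.61% were called higher there and 5.3% lower, and 5677 of 21448 had an unadjusted p under 0.05. Nothing is read from a count over so few genes. COG7, a subunit of the Golgi COG complex whose span lies 7198 bases from that of SCNN1B, averaged 11.26 with EGF plus gefitinib, 11.47 with EGF and 11.65 in the control. Between EGF plus gefitinib and EGF, 2 of the 5 measured neighbours of SCNN1G other than SCNN1B were called higher and 0 lower. Of all probe sets 8.86% were called higher there and 9.81% lower. NPIPB5, a member of a family of near-identical copies, was 2.29-fold higher with EGF plus gefitinib than with EGF (limma, adjusted p = 0.00582), and USP31 at least 1.71-fold (adjusted p = 0.013), except without EGF 1 or EGF plus gefitinib 2 (up to 0.0865). Of 6 measured neighbours of SCNN1D, 1 was called higher and 0 lower with EGF against the control. Between EGF plus gefitinib and EGF, 0 were higher and 3 lower, beside the same shares of all probe sets. B3GALT6 rose 1.87-fold with EGF (limma, adjusted p = 0.0255) and fell 1.80-fold with EGF plus gefitinib against EGF (adjusted p = 0.022). In the control and with EGF plus gefitinib 1 of its 2 arrays lay above the limit, so both folds rest on values near it. The rise was not called with any 1 of the 4 control and EGF arrays left out (0.76 to 1.04). The fall was not called without EGF 1, EGF 2 or EGF plus gefitinib 1 (−0.96 to −0.74 over all fits). UBE2J2, a ubiquitin-conjugating enzyme, was at least 1.63-fold lower with EGF plus gefitinib than with EGF (adjusted p = 0.0168), a call lost without EGF 2 or EGF plus gefitinib 2, and CPTP, a ceramide-1-phosphate transfer protein, fell by 1.10 ± 0.20 below the limit (adjusted p = 0.00924), a call lost without EGF 1 or EGF 2.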

How the data were processed

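Total RNA of 6 samples was labelled (WT PLUS kit), per the labels' protocols, and hybridised to 1 array each. The authors deposited log2 values. The program was Transcriptome Analysis Console, as the submitters' processing notes record. Its version, background correction, summarization, normalization and genome build were not given in those sources. Values ran from 1.58 to 18.9 and were used as deposited. Of 24351 probe sets 2903 were controls. The other 21448 were fitted with limma 3.58.1 in R 4.3.3 (lmFit, eBayes), all 6 arrays in 1 fit with 3 group means, with Benjamini-Hochberg adjustment over all of them and calls under 0.05. The fit was tested on simulated data. A group at or below the background limit on both arrays has only a bound: folds against it use the limit and are written "at least". The number of arrays limits the precision.

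The platform annotation gave 1 symbol for 17709 probe sets, several for 0, and did not list 3739. The members and lists were chosen with earlier results of these data known. Genes were named by a rule: the subunits, up to 4 genes higher and 4 lower per list among those called, the 5 nearest profiles, 3 neighbours on each side, EGFR and DUSP6. Same-numbered arrays of different groups did not deviate together (correlations of −0.041 to 0.0213), so the numbers were not taken as pairs. Alternatives were a replicate block, quantile normalization, median centring, a filter on dim probe sets, a trended prior, 4-array fits and leaving out each array. The trended prior was an intensity trend and a robust variance prior used together.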

Additional observations from a re-analysis of the deposited data

How the results depend on the processing

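No alternative turned the direction of a called subunit difference. SCNN1D, never called, turned to 0.071 for EGF plus gefitinib against control without control 1. Among genes never called in those comparisons, EGFR turned to −0.063 for EGF against control after quantile normalization, FURIN to 0.0034 for EGF plus gefitinib against control without control 1 (−0.11 to 0.0034 leaving out 1 array), and SGK1 (−0.60 to 0.20) to 0.058 and 0.20 for EGF plus gefitinib against EGF without EGF 1 and EGF plus gefitinib 2. For EGF against control 2554 probe sets were called, 3945 with the filter on dim probe sets, 4241 with the trended prior, and 726 to 2506 leaving out 1 array. For EGF plus gefitinib against EGF 4005 were called, and 1889 to 3406 leaving out 1 array. For EGF plus gefitinib against control 834 were called, 2538 with the filter, 2777 with the trended prior, 247 with the 4 arrays alone, and 0 to 247 leaving out 1 array. Where that count was 0 (without control 1 or EGF plus gefitinib 2), 3280 and 3810 probe sets had an unadjusted p under 0.05. With the replicate block the last comparison had 333 calls, and the calls of NEDD4L, NPIPB5 and EGFR there were lost, while the subunits kept theirs. In the first 2 comparisons the block gave 2040 and 3489. It lost the calls of RICTOR, OXSR1, SPINT1 and PLEKHG6 for EGF against control, leaving 1 turnover gene higher in place of 3, and that of DUSP1 for EGF plus gefitinib against EGF. Against control it left 0 turnover genes, 0 pump genes and 0 transporters called, and 1 protease lower in place of 2.

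The subunits' differences leaving out 1 array ran as follows. For EGF against control they were −1.48 to −1.14 for SCNN1A, −2.24 to −1.26 for SCNN1B, −4.20 to −3.61 for SCNN1G and 0.15 to 0.63 for SCNN1D. For EGF plus gefitinib against EGF they were 0.49 to 0.68, 0.31 to 0.63, 0.73 to 1.32 and −0.74 to −0.38 in that order, and against control −0.90 to −0.56, −1.77 to −0.80, −3.10 to −2.66 and −0.41 to 0.071. SCNN1A at 0.58 and −0.73 passed with the filter and the trended prior, SCNN1B at −1.28 with the trended prior, and SCNN1G at 1.03 failed with the 4 arrays alone. The causes were not tested. Signal over background limits SCNN1B, SCNN1D and SCNN1G: with the limit at the 99th percentile of the negative controls they were measured on 0 arrays. With the limit at the 50th percentile SCNN1B stood above it on 6 arrays, SCNN1G on 5 and SCNN1D on 0, so the counts for SCNN1B and SCNN1G depend on the limit chosen.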
